A study of Homo sapiens with 6 samples.

Results

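The 36 genes described here encode proteins of homologous recombination and of the Fanconi anaemia pathway. They were chosen by name as members of these pathways, not by a measured value, but with earlier results of these data known. Each was found by its symbol among the 57820 genes of the count files. All 36 were counted well enough to enter the test, which covered 16006 genes. The samples were C4-2B-ENZR cells, an established human prostate cancer line described as resistant to enzalutamide, an inhibitor of the androgen receptor. Total RNA was sequenced from 3 libraries of C4-2B-ENZR cells transfected with siRNA against RUVBL1 (C4-2B-ENZR_siRUVBL1) and from 3 libraries of the same cells transfected with a negative-control siRNA (C4-2B-ENZR_NC). RUVBL1 is an AAA+ ATPase of chromatin-remodelling complexes and of a chaperone that assembles large protein complexes. All libraries come from this single line. The labels do not say how many siRNA sequences were used, for how long, or whether replicates came from separate cultures. The p-values therefore measure only library-to-library spread, part or all of which may be technical.

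Library totals lay between 18985542 and 25697804 estimated counts after RUVBL1 siRNA and between 24720504 and 36054489 with control siRNA. RUVBL1 itself was at 57.1% ± 1.23 of the control mean (SD, n = 3). For each such percentage the SD holds the spread of the RUVBL1 siRNA libraries alone and leaves out that of the control libraries. Both replicate 1 libraries stood apart from the other 4, since 542 genes with at least 20 counts in each of those 4 were at 0 in both, but 0 of the 36 repair genes were among them. All 12 listed markers of luminal prostate epithelium were detected, and 9 of them were lower after RUVBL1 siRNA, against 23.1% of all tested genes. Among the 9 were STEAP2, KRT8 and FOLH1 (log2 fold changes of -0.44, -0.49 and -0.35). The summed level of the 12 was 125747 to 129205 normalized counts after RUVBL1 siRNA and 152324 to 155105 with control siRNA, and its part in the results was not tested. Of 14 markers of immune, endothelial, stromal, basal and neuroendocrine cells found in the files, 6 were at 0 in every library, among them CD3E, KRT5 and COL1A2. The summed level of the 14 was 387 to 422 normalized counts after RUVBL1 siRNA and 349.5 to 391.8 with control siRNA. Of the 3 counted well enough to test, 0 passed edgeR, DESeq2 or limma-voom, 1 had an unadjusted p under 0.05, and 1 was called higher with the replicate number as a block, with a filter of 50 counts in 3 libraries and under scaling by totals only. Transcripts of the mitochondrial genome took 11.3% to 11.6% of counts after RUVBL1 siRNA and 13.5% to 13.8% with control siRNA, and the counts of called repair genes were the same without them. A normalized count is a count scaled to the mean library size after correction for composition. In bulk RNA, fewer cells of a kind and less RNA per cell cannot be told apart.

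Homologous recombination repairs a broken chromosome by copying the intact sister chromatid, and is therefore used mainly in the S and G2 phases of the cell cycle. The broken ends are first trimmed to single strands, the BRCA proteins then prepare those strands for exchange, motor proteins help them to invade the sister, and the joined molecules are finally dissolved or cut apart. The Fanconi pathway handles covalent links between both DNA strands, marks the site with ubiquitin and hands the resulting break to recombination. Inherited and tumour mutations in BRCA2 and related genes are well known in advanced prostate cancer and underlie the use of PARP inhibitors there.

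After RUVBL1 siRNA, transcripts of 15 of the 36 repair genes were lower and 2 were higher at an edgeR adjusted p under 0.05, and 19 did not pass. The 17 called genes are 47.2% of the list, against 42.2% of all tested genes. The decreases were modest, between 8.73% and 30.9% of the control mean. The 15 genes that fell held BRCA1, BARD1 and BRCA2, the nuclease genes EXO1 and MRE11 with RAD50, both RAD54 genes, XRCC2, the Fanconi genes FANCA, FANCB, FANCC and FANCG, and FANCD2 with FANCI. The 2 that rose were the nuclease gene MUS81 and the scaffold gene SLX4, of which SLX4 lost its call in 7 of 15 alternatives. The share that fell was 41.7%, against 23.1% of all tested genes, and the share that rose was 5.56%, against 19.1% of all tested genes. The siRNA libraries and the control libraries did not overlap for 18 of the 36 genes, against 52.6% of all tested genes. For 16 of the 36, or 44.4%, they did not overlap with the siRNA side lower, against 27.4% of all tested genes. The median log2 fold change of the 36 was -0.0785, beside 0.0117 over all tested genes, and 29 of 36 had a negative value against 48.3% of all tested genes.

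The calls and the median of the list depended on the scaling of the libraries, and so did those of all tested genes. When only library totals were used for scaling, 9 of the 36 genes were lower and 5 higher, beside 2297 and 4981 of the 16006 tested genes. The median log2 fold change of the 36 was then 0.0208, with 0.11 over all tested genes. Under both scalings the median of the 36 lay below that of all tested genes. Among all tested genes, the share of calls that were higher was 68.4% with totals only and 45.3% with composition factors. The 9 that stayed lower were BRCA1, BRCA2, EXO1, RAD54L, RAD54B, FANCA, FANCC, FANCG and FANCI, and these 9 and MUS81 kept their calls in all 15 alternatives tried. None of the 17 called genes changed direction in any of the 15.

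**Figure D1:**
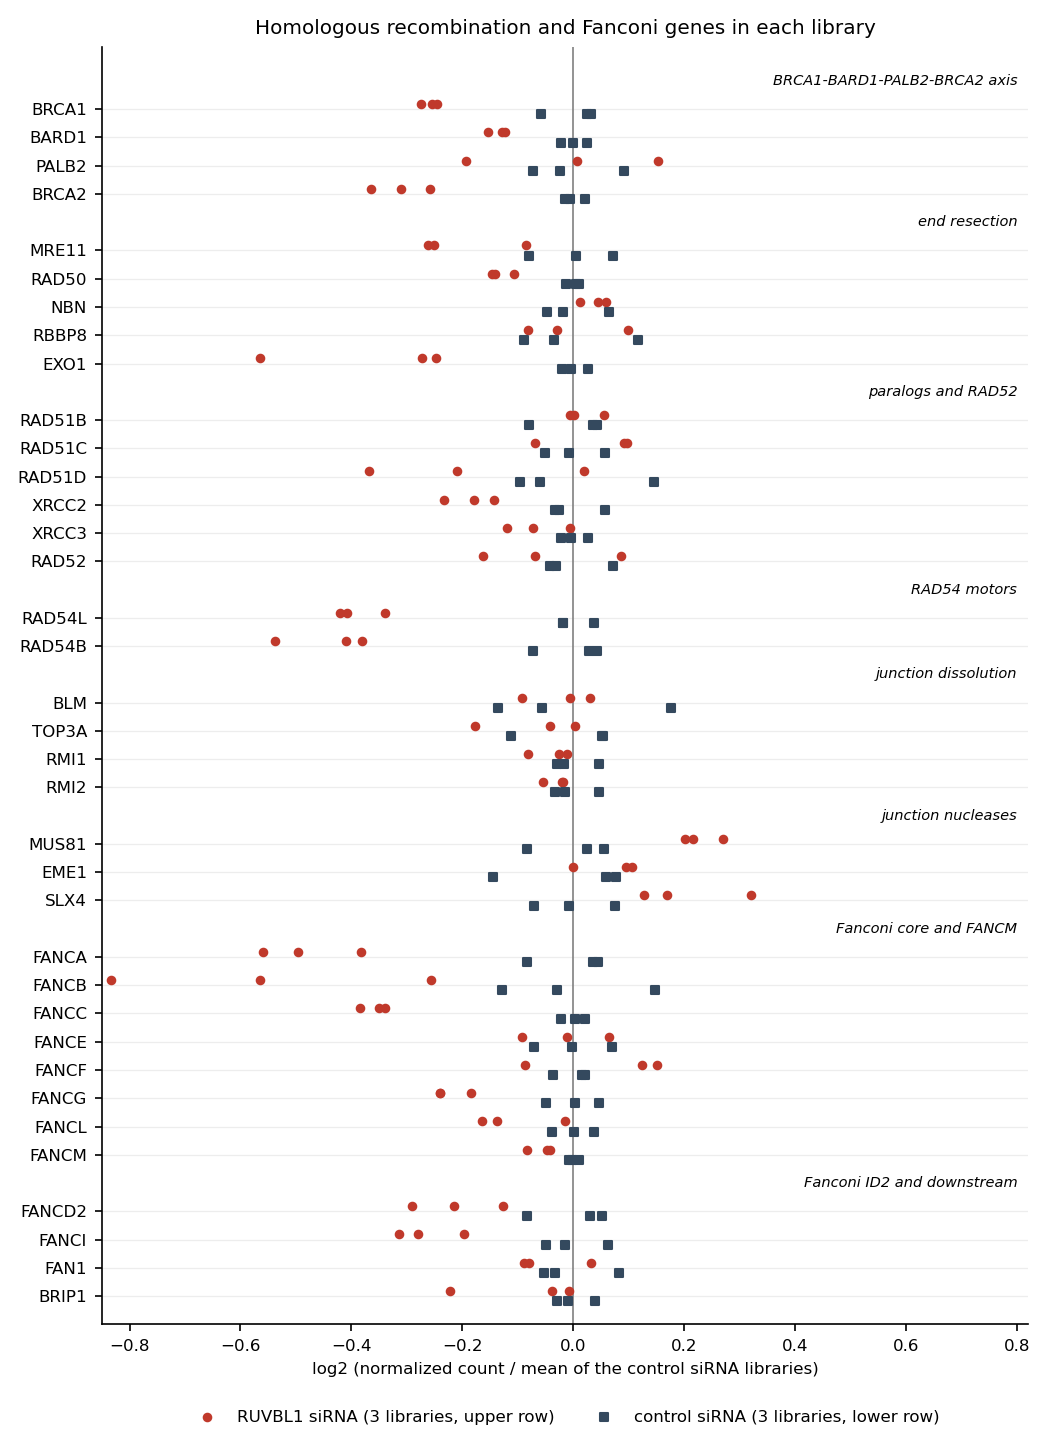
Normalized count of each of the 36 genes in each of the 6 libraries, as log2 of its ratio to the mean of the control siRNA libraries, with RUVBL1 siRNA libraries as circles above and control siRNA libraries as squares below. Both RAD54 genes, BRCA1, BRCA2, EXO1, FANCA and FANCC have all RUVBL1 siRNA libraries to the left of all control siRNA libraries, MUS81 and SLX4 have them to the right, and the 4 dissolution genes overlap.

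BRCA1 and BARD1 form a ubiquitin ligase that acts early at breaks, and PALB2 connects BRCA1 to BRCA2, which prepares single strands for exchange. BRCA1 (ENSG00000012048.15) had 1227, 1251 and 1243 normalized counts after RUVBL1 siRNA, against 1509, 1425 and 1518 with control siRNA. The siRNA libraries lay close together and all below the control libraries. The level was 83.6% ± 0.817 of the control mean (SD, n = 3), with a log2 fold change of -0.26 (SE 0.0346, edgeR adjusted p = 6.63e-05). BRCA2 (ENSG00000139618.10) had 734, 763 and 791 normalized counts after RUVBL1 siRNA, against 960, 942 and 937 with control siRNA. It was at 80.6% ± 2.99 of the control mean, again without overlap (log2 fold change -0.31, SE 0.0440, adjusted p = 0.000105 in edgeR). BARD1 (ENSG00000138376.6), by far the more abundant partner of the ligase, had 4162, 4235 and 4252 normalized counts after RUVBL1 siRNA, against 4709, 4559 and 4628 with control siRNA. Its log2 fold change was smaller, at -0.14 (adjusted p = 0.000293 in edgeR), and missed the threshold when only totals were used for scaling (edgeR adjusted p = 0.241). PALB2 had 292, 336 and 372 normalized counts after RUVBL1 siRNA, against 329, 318 and 356 with control siRNA. These overlap, and the log2 fold change was -0.0040 with an SE of 0.0935 (edgeR adjusted p = 0.986).

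**Figure D2:**
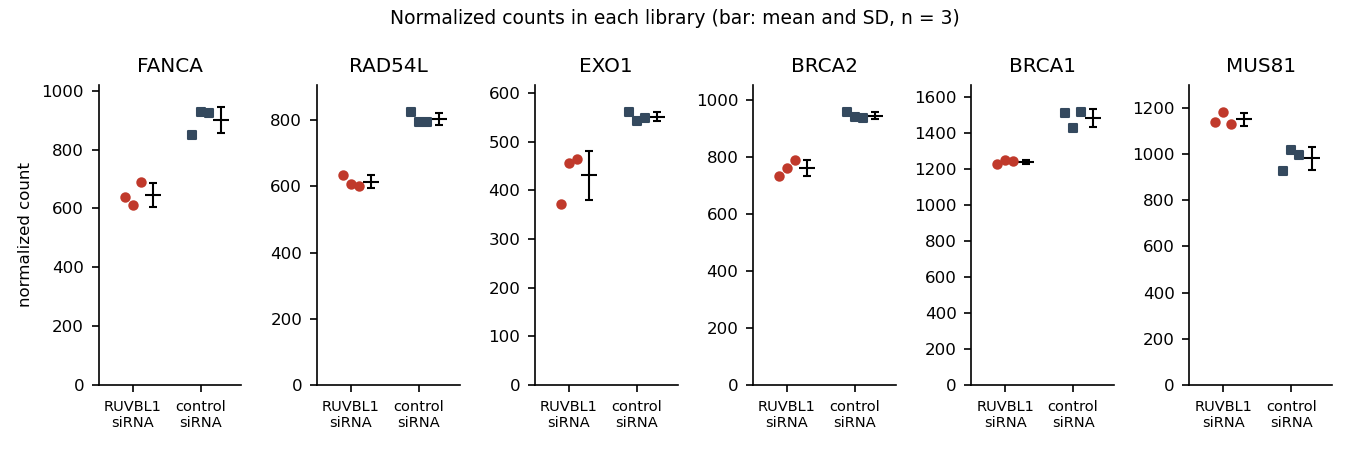
Normalized counts of 6 genes in each library, with the mean and SD of the 3 libraries beside the points and axes that start at 0. FANCA, RAD54L, EXO1, BRCA2 and BRCA1 are lower in all 3 RUVBL1 siRNA libraries and MUS81 is higher in all 3.

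End resection starts with MRE11, RAD50 and NBN, which bind the break as a complex, and RBBP8 (CtIP), which activates its nuclease, and is extended by the exonuclease EXO1. EXO1 (ENSG00000174371.12) had 373, 456 and 464 normalized counts after RUVBL1 siRNA, against 561, 543 and 549 with control siRNA. The siRNA libraries were all lower, with replicate 1 lowest, at a log2 fold change of -0.35 (SE 0.0783, adjusted p = 0.00298 in edgeR). RAD50 had 1769, 1820 and 1776 normalized counts after RUVBL1 siRNA, against 1973, 1941 and 1965 with control siRNA. Its log2 fold change was -0.13 (adjusted p = 0.00323 in edgeR), a call lost under scaling by totals only (0.444). MRE11 had 547, 614 and 543 normalized counts after RUVBL1 siRNA, against 653, 617 and 684 with control siRNA. The groups were separated by only a few counts, and the log2 fold change of -0.20 (adjusted p = 0.0263 in edgeR) did not hold in every fit. The adjusted p was 0.0747 when RUVBL1 siRNA replicate 1 was left out, 0.106 for replicate 3 of the same group, 0.0520 for control siRNA replicate 1, 0.106 for control siRNA replicate 3 and 0.248 under scaling by totals only. NBN averaged 1895 ± 32.1 normalized counts after RUVBL1 siRNA and 1846 ± 75.5 with control siRNA (SD, n = 3 each), and the groups overlap. RBBP8 averaged 675 ± 43.9 after RUVBL1 siRNA and 676 ± 50.6 with control siRNA, with a log2 fold change of -0.0030 (SE 0.0661). NBN and RBBP8 did not pass the edgeR test (adjusted p = 0.437 and 0.985).

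RAD51B, RAD51C, RAD51D, XRCC2 and XRCC3 work together in small complexes that aid strand exchange, and RAD52 is a mediator with a backup role in human cells. XRCC2 alone of these 6 genes passed the test, where 42.2% of all tested genes did. XRCC2 had 847, 879 and 902 normalized counts after RUVBL1 siRNA, against 1035, 973 and 978 with control siRNA. All siRNA libraries were lower, at a log2 fold change of -0.18 (adjusted p = 0.00420 in edgeR), and the call was lost under scaling by totals only (0.144). RAD51D, which pairs with XRCC2, had 247, 189 and 211 normalized counts after RUVBL1 siRNA, against 228, 270 and 234 with control siRNA. RUVBL1 siRNA replicate 1 was above 2 of the control libraries, and the log2 fold change of -0.18 (SE 0.116) did not pass (edgeR adjusted p = 0.250). In replicates 2 and 3 alone it was -0.34 and passed (adjusted p = 0.0115). The log2 fold changes of XRCC3, RAD52, RAD51B and RAD51C ran from -0.0661 to 0.0433, and their groups overlap.

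RAD54L and RAD54B are DNA motor proteins that drive strand invasion, and they showed some of the larger decreases. RAD54L (ENSG00000085999.7) had 636, 606 and 601 normalized counts after RUVBL1 siRNA, against 825, 794 and 794 with control siRNA. It was at 76.4% ± 2.33 of the control mean (log2 fold change -0.39, SE 0.0483, edgeR adjusted p = 3.5e-05). RAD54B (ENSG00000197275.8) had 463, 415 and 454 normalized counts after RUVBL1 siRNA, against 615, 621 and 574 with control siRNA. It was at 73.7% ± 4.22 of the control mean (log2 fold change -0.44, SE 0.0618, edgeR adjusted p = 9.39e-05). For both genes every siRNA library lay well under every control library.

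Of the 7 genes of the last steps of recombination, 2 rose and 0 fell, where 19.1% of all tested genes rose and 23.1% fell. BLM, TOP3A, RMI1 and RMI2 form the dissolvasome, a helicase and topoisomerase complex that undoes double Holliday junctions without crossover. Of the 4, 0 passed edgeR, DESeq2 or limma-voom and 0 had an unadjusted p under 0.05 in edgeR. Their log2 fold changes ran from -0.0699 to -0.0219 with overlapping groups. RMI2, which had the tightest replicates of the 4, averaged 481 ± 6.73 normalized counts after RUVBL1 siRNA and 492 ± 14.1 with control siRNA. MUS81 is the catalytic subunit of a nuclease that cuts branched molecules, EME1 is its partner and SLX4 is a scaffold that holds several nucleases. MUS81 (ENSG00000172732.7) had 1138, 1181 and 1127 normalized counts after RUVBL1 siRNA, against 925, 1017 and 997 with control siRNA. It was at 117% ± 2.96 of the control mean, with no overlap (log2 fold change 0.23, SE 0.0432, edgeR adjusted p = 0.000959). SLX4 had 461, 415 and 403 normalized counts after RUVBL1 siRNA, against 389, 352 and 367 with control siRNA. Its log2 fold change of 0.21 (adjusted p = 0.0392 in edgeR) was not firm. The adjusted p was 0.152 and 0.0656 when RUVBL1 siRNA replicate 1 or 2 was left out, 0.143 and 0.103 for control siRNA replicate 2 or 3, 0.102 with no low-count filter and 0.0596 with DESeq2. EME1 had 917, 910.2 and 852 normalized counts after RUVBL1 siRNA, against 771, 899 and 888 with control siRNA, and did not pass (edgeR adjusted p = 0.437).

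In the Fanconi pathway, FANCA, FANCB, FANCC, FANCE, FANCF, FANCG and FANCL make up the core complex, in which FANCL is the ubiquitin ligase, and FANCM anchors the complex to DNA. Of these 8 genes, 4 were lower and 0 higher, where 23.1% of all tested genes were lower and 19.1% higher. FANCA (ENSG00000187741.10), the gene most often mutated in Fanconi anaemia, had 638, 611 and 691 normalized counts after RUVBL1 siRNA, against 850, 929 and 924 with control siRNA. It was at 71.8% ± 4.51 of the control mean (log2 fold change -0.48, SE 0.0575, edgeR adjusted p = 2.66e-05). FANCC had 459, 474 and 470 normalized counts after RUVBL1 siRNA, against 608, 590 and 600.3 with control siRNA. Both groups were tight and well apart, at a log2 fold change of -0.36 (SE 0.0518, edgeR adjusted p = 0.000125). FANCG, which binds FANCA, had 1003, 1003 and 1042 normalized counts after RUVBL1 siRNA, against 1223, 1187 and 1145 with control siRNA. All siRNA libraries were lower, at a log2 fold change of -0.22 (adjusted p = 0.000508 in edgeR). FANCB, a scaffold of the catalytic module, was the least counted of the 36 genes, with 56.1, 67.6 and 83.7 normalized counts after RUVBL1 siRNA against 110.7, 97.9 and 91.4 with control siRNA. Its log2 fold change of -0.53 was the lowest of the list but had an SE of 0.174 (edgeR adjusted p = 0.0273), and its call was not firm. The adjusted p was 0.0875 and 0.0826 when RUVBL1 siRNA replicate 1 or 2 was left out, 0.0957 and 0.0711 for control siRNA replicate 1 or 2, 0.0610 under scaling by totals only and 0.0949 with DESeq2. FANCE, FANCF, FANCL and FANCM did not pass, with log2 fold changes from -0.10 to 0.0647. For FANCM the groups were nevertheless apart, at 536 to 551 normalized counts after RUVBL1 siRNA and 565 to 572 with control siRNA.

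FANCD2 and FANCI form the clamp that the core complex marks with ubiquitin, FAN1 is a nuclease recruited to that mark, and BRIP1 (FANCJ) is a helicase that binds BRCA1. FANCI (ENSG00000140525.13) had 2388, 2203 and 2256 normalized counts after RUVBL1 siRNA, against 2708, 2646 and 2861 with control siRNA. It was at 83.3% ± 3.47 of the control mean (log2 fold change -0.26, SE 0.0385, edgeR adjusted p = 0.000134). FANCD2 had 1512, 1593 and 1693 normalized counts after RUVBL1 siRNA, against 1744, 1887 and 1916 with control siRNA. Its log2 fold change was -0.21 (adjusted p = 0.00468 in edgeR), and the adjusted p was 0.0617 under scaling by totals only. FAN1 and BRIP1 overlapped between groups, with log2 fold changes of -0.0466 and -0.0870, and did not pass (edgeR adjusted p = 0.454 and 0.311). Each gene was also compared by exact permutation of the libraries, two-sided, which with 3 against 3 cannot give less than 0.1. The exact p was 0.1 for every one of the 17 called genes.

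**Figure D3:**
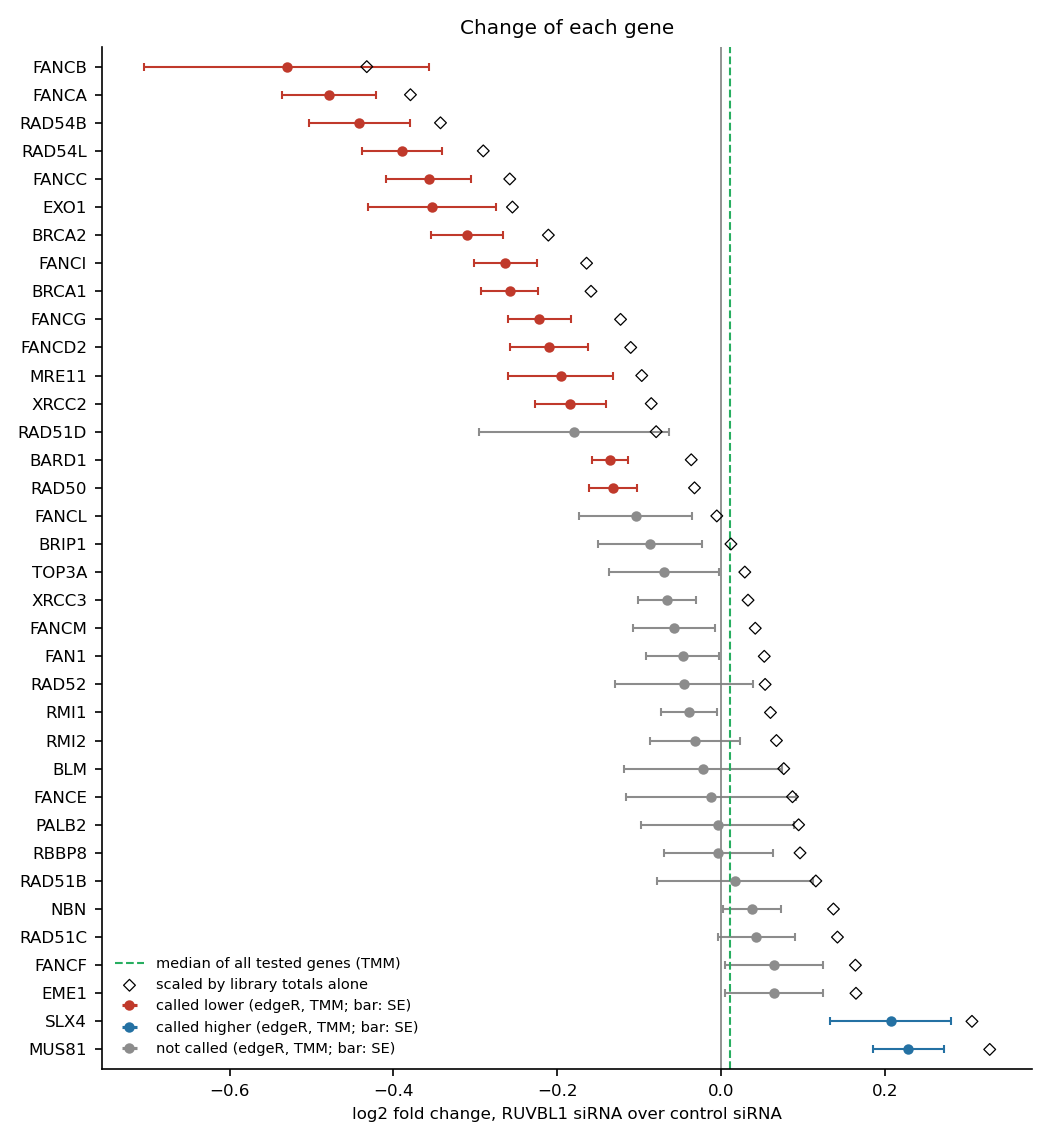
Log2 fold change of RUVBL1 siRNA over control siRNA for the 36 genes, ordered by size, with the SE as a bar and colour for the edgeR call, and diamonds for the same value under scaling by library totals only. The diamonds lie to the right of the points throughout, and the 9 genes called lower under both scalings have both marks below 0.

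The proximal promoters of 5 genes are shown to set the sequences beside the values. FANCA, RAD54L and FANCC had the largest falls among genes that have a promoter window and average 100 normalized counts or more, while RBBP8 and PALB2 had the log2 fold changes nearest to 0. Each window runs from 250 bases before to 50 bases after a RefSeq transcript start on GRCh38.p14, in the direction of the gene, and capitals mark the letters of an E2F-like motif, TTTNNCGC on either strand.
FANCA (chr16:89816598-89816897, minus strand): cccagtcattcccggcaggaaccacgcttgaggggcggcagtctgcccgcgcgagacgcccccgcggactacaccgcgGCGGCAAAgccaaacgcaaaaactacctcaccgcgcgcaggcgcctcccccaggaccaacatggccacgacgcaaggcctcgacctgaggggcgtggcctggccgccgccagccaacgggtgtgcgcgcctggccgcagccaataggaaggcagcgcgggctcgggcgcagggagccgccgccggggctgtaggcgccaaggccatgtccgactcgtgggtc
RAD54L (chr1:46247438-46247737, plus strand): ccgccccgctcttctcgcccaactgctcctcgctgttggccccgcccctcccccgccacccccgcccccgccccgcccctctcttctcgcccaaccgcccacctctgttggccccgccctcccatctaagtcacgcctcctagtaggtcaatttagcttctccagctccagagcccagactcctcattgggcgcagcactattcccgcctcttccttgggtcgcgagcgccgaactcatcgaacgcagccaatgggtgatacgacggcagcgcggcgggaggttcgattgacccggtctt
FANCC (chr9:95317660-95317959, minus strand): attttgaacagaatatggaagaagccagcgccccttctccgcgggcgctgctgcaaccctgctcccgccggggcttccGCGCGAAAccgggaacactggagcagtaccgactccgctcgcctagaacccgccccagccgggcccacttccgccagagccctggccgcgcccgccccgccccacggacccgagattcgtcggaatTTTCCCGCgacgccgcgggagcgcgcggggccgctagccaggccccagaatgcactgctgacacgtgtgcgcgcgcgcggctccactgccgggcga
RBBP8 (chr18:22933078-22933377, plus strand): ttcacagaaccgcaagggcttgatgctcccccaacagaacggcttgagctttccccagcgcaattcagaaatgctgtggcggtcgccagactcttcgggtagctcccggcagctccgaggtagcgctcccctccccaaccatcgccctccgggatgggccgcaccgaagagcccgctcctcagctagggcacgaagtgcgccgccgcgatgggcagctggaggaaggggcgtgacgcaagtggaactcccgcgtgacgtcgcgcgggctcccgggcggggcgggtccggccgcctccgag
PALB2 (chr16:23641261-23641560, minus strand): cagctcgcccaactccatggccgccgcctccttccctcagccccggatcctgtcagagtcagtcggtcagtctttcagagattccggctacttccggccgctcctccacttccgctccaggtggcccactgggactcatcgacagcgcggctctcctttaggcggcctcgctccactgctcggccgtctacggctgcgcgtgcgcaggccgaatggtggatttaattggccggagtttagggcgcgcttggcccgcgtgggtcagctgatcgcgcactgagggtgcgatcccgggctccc
E2F factors drive genes of the G1 to S transition, and this motif resembles their known site. FANCA held 1 match, 172 bases before the start, and FANCC held 2, which began 172 and 46 bases before it. RAD54L, RBBP8 and PALB2 held 0 in these windows. RefSeq windows matched 32 of the 36 genes, all but FANCI, NBN, RAD54B and RMI2, and the first listed start was used for the 11 with a second one. The motif was in 5 of 13 windows of genes that fell (EXO1, FANCA, FANCC, FANCD2 and XRCC2), in 0 of 2 of those that rose and in 0 of 17 of those not called, against 6.90% of all 27305 windows. The CCAAT letters of the NF-Y site, on either strand, were in 3 of 13, 1 of 2 and 7 of 17 of these windows, against 35.7% of all. The letters TTTGAA of the CHR element of late cell-cycle genes were in 1 of 13, 0 of 2 and 1 of 17, against 15.4% of all. These counts describe letters in the windows, not bound sites. Over all 32 windows of the list, the E2F-like motif was in 5, or 15.6%. The 27305 windows used as background were not limited to genes tested here and were not matched for base composition.

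Ratios between partners of a complex do not depend on how libraries are scaled, so 14 pairs of complex partners were compared within each library. This comparison was chosen after the values of the genes were seen. The ratio of estimated counts did not overlap between groups for 7 of the 14, against 50.5% of all 630 pairs that the 36 genes can form. That share is near the background of all pairs of the list. The BRCA1 to BARD1 ratio was 0.295, 0.295 and 0.292 after RUVBL1 siRNA, against 0.320, 0.313 and 0.328 with control siRNA. BRCA1 was thus lower relative to BARD1 in each siRNA library, by 0.12 on the log2 scale. The BRCA2 to PALB2 ratio was 2.51, 2.27 and 2.13 after RUVBL1 siRNA, against 2.92, 2.96 and 2.63 with control siRNA. The NBN to RAD50 ratio was 1.08, 1.02 and 1.08 after RUVBL1 siRNA, against 0.978, 0.939 and 0.909 with control siRNA, while the MRE11 to RAD50 ratio overlapped. NBN was thus higher relative to RAD50 in every siRNA library. The MUS81 to EME1 ratio was 1.24, 1.30 and 1.32 after RUVBL1 siRNA, against 1.20, 1.13 and 1.12 with control siRNA. Within the Fanconi core, FANCA was lower relative to FANCG, and FANCC relative to FANCF and FANCE, with differences in log2 ratio of -0.26, -0.42 and -0.35. FANCD2 to FANCI averaged 0.702 ± 0.0614 after RUVBL1 siRNA and 0.676 ± 0.0349 with control siRNA (SD, n = 3 each), with overlap. For the 7 separated ratios the exact permutation p, two-sided, was 0.1 each, and 0.2 after adjustment over the 14 pairs.

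**Figure D4:**
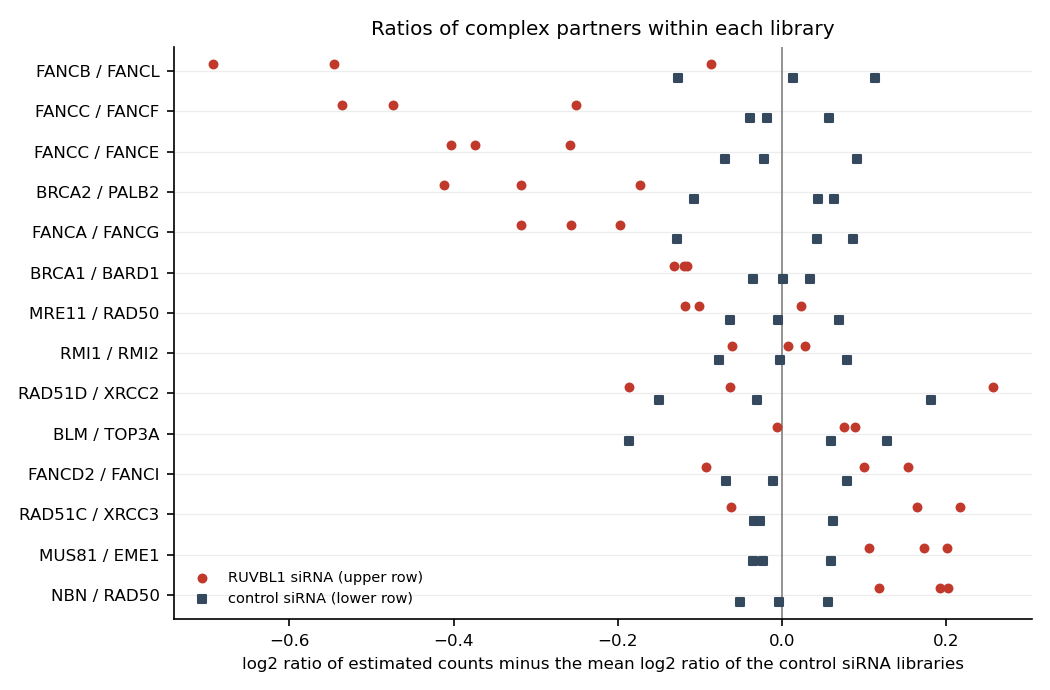
Log2 ratio of the estimated counts of 2 partners of a complex in each library, relative to the mean of the control siRNA libraries. RUVBL1 siRNA libraries are circles above and control siRNA libraries are squares below. For 7 of the 14 pairs the circles and squares do not overlap, with FANCC to FANCF furthest to the left of these and NBN to RAD50 furthest to the right.

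Levels differed far more among the genes than between the groups. Per kilobase of median coding transcript, RAD51C, BARD1 and XRCC3 were highest, at 1341, 1029 and 622 normalized counts per kilobase after RUVBL1 siRNA and 1303, 1131 and 651 with control siRNA. FANCB was lowest, at 23.4 normalized counts per kilobase after RUVBL1 siRNA and 33.9 with control siRNA, followed by SLX4 with 58.4 and 50.5 and BLM with 58.6 and 59.5. BRCA2 stood at 66.4 normalized counts per kilobase after RUVBL1 siRNA and 82.4 with control siRNA, BRCA1 at 357 and 428, and FANCA at 388 and 540.2. The lengths used were 11485, 3470.5 and 1667.5 bases for these genes. They are medians over annotated transcripts, not the transcripts measured here, so the levels and their order depend on that choice. Across the 36 genes the log2 fold change had a Pearson r of 0.0636 (Spearman rho 0.0180) with the log2 level per kilobase in control libraries, and of -0.0374 (rho -0.12) with log2 transcript length. The genes share libraries and are not independent, so these are descriptions.

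The other genes of the pathway, on lists that hold none of the 36, moved in both directions. Of all tested genes, 23.1% were lower and 19.1% higher. Of 17 further recombination factors, 6 were lower and 4 higher (median log2 fold change -0.0297), among them RFWD3, a ubiquitin ligase, at -0.44, the ATPase gene FIGNL1 at -0.27 and RPA1, the large subunit of the single-strand binding protein, at -0.17. With 1 library left out, 5 or 6 were lower. The number higher was 1 when RUVBL1 siRNA replicate 1 or 3 was left out, and 2 when RUVBL1 siRNA replicate 2 or any control siRNA library was. Of 15 further Fanconi factors, 2 were lower and 5 higher (median -0.0227). With the replicate number as a block 5 were lower, and 1 was lower when any 1 control siRNA library was left out. WDR48, the cofactor of the deubiquitinase USP1, rose by 0.33 on the log2 scale, the nuclease subunit gene ERCC1 rose by 0.19, and CENPX, a partner of FANCM, fell by 0.14, a call lost under scaling by totals only.

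Of 29 genes of break signalling, 7 were lower and 5 higher (median -0.0517), where 23.1% of all tested genes were lower and 19.1% higher. The histone gene H2AX, whose protein is phosphorylated around breaks, rose by 0.37 on the log2 scale, the checkpoint clamp loader gene RAD17 rose by 0.32 and the fork protection gene TIPIN fell by 0.41. The number higher was 2 when RUVBL1 siRNA replicate 2 was left out and 3 when control siRNA replicate 1, 2 or 3 was. The number lower ran from 5 to 10 with 1 library left out. It was 10 with the replicate number as a block and with no low-count filter. Of 14 genes of end joining, the competing repair route, 8 were lower and 2 higher (median -0.18). PRKDC, the catalytic subunit of DNA-PK, fell by 0.45, and XRCC5 and XRCC6, which encode Ku80 and Ku70, fell by 0.37 and 0.25. With 1 library left out, 6 to 8 of the 14 were lower, and 1 was higher except when control siRNA replicate 2 was the one left out, which gave 2.

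Markers of cell-cycle phases moved as well, beside 23.1% of all tested genes lower and 19.1% higher. Of 37 tested markers of the G1/S phase, 30 were lower and 1 higher, with FEN1, ATAD2 and RRM2 falling by 0.63, 0.47 and 0.42 on the log2 scale, and the summed level of the list was 68002 to 68905 normalized counts after RUVBL1 siRNA and 84079 to 84839 with control siRNA. Of 53 markers of the G2/M phase, 39 were higher and 5 lower, with HMGB2 and CENPF rising by 0.54 and 0.46 and TUBB4B falling by 0.43. The summed level of these was 195683 to 198616 normalized counts after RUVBL1 siRNA and 179344 to 181395 with control siRNA. Of 19 genes of E2F, RB and DREAM complexes, 5 were lower and 2 higher (median log2 fold change 0.0212), with E2F1 and RBL1 falling by 0.38 and 0.45 and FOXM1 rising by 0.32. The number lower was 3 when RUVBL1 siRNA replicate 2 or 3 or control siRNA replicate 2 was left out, and the 1 higher G1/S marker was not called when control siRNA replicate 2 was. Under scaling by totals only, 24 G1/S markers were lower and 2 higher, and 47 G2/M markers were higher and 1 lower. Of the 16006 tested genes, 2297 were then lower and 4981 higher. The same scaling gave 4 lower and 6 higher for the recombination factors, 0 and 6 for the Fanconi factors, 4 and 9 for break signalling, 5 and 3 for end joining, and 3 and 5 for the E2F, RB and DREAM genes. The part of cell-cycle state in the values of the 36 repair genes was not tested.

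**Figure D5:**
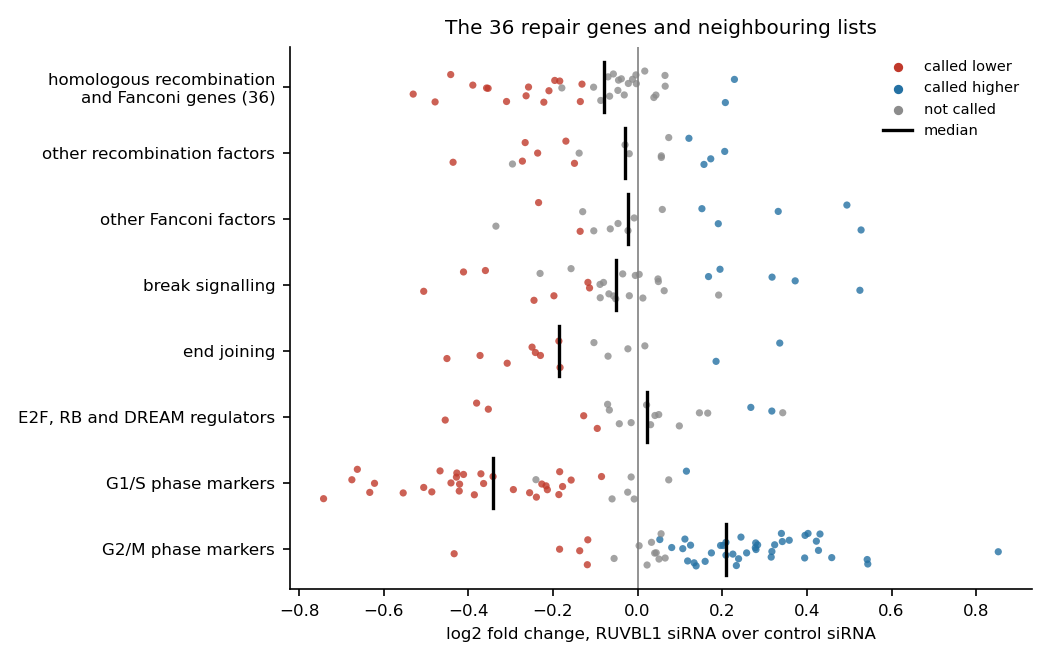
Log2 fold change of RUVBL1 siRNA over control siRNA for each tested gene of the 36 repair genes and of 7 neighbouring lists, coloured by the edgeR call, with the median as a bar. The median of the 36 lies at -0.0785, between that of the G1/S markers at -0.34 and that of the G2/M markers at 0.21.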

How the data were processed

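Libraries were grouped by the labels into RUVBL1 siRNA and control siRNA, 3 each. Each deposited file gives unscaled estimated counts per gene. Between 87.8% and 90.5% of them were exactly whole, so they were rounded. The aligner was Bowtie 0.12.2, per the submitters' processing notes, which list mouse builds although cells and gene identifiers are human. No source used here states the counter, human build, annotation or strand setting, and reads of overlapping genes may not have been told apart. Of the 36 genes, 15 had a non-whole estimated count in at least 1 library, among them 9 of the called genes, and their values may hold reads shared with other loci. Symbols came by stable identifier from a table that matched 51996 of 57820 genes, and transcript lengths from GENCODE 29.

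The test was edgeR's robust quasi-likelihood test (version 4.0.16, R 4.3.3) on groups alone, after filterByExpr and TMM scaling, two-sided, with Benjamini-Hochberg adjustment over 16006 genes and a threshold of 0.05. Normalized counts are counts over effective library size, times its mean of 26348516. An SE is the size of the log2 fold change over the root of its F statistic. The scripts were tested on simulated data that lacked the difference of replicate 1. This checks the code and not the error rate on these data. Alternatives were DESeq2 1.42.0, limma-voom (limma 3.58.1), other scalings and filters, the replicate number as a block, and libraries left out. Same-numbered libraries deviated together from their group means (correlations 0.939, 0.819 and 0.823), but replicates 2 and 3 also correlated across numbers (0.807 and 0.817). These values set replicate 1 apart and cannot show whether replicates 2 and 3 were paired by number. The labels do not state pairing. Replicate libraries of a group differed by more than counting noise (mean chi-square per gene 1.63 to 3.13) and each counted as 1 replicate. The 36 genes and all lists were chosen with earlier results of these data known. Named were the 36 genes, RUVBL1, and of each other list the 3 called genes with the smallest p. Promoters followed a rule: the 3 largest falls and the 2 values nearest 0 among genes with a promoter window, not on chromosome 8 and with a mean of at least 100 normalized counts, which leaves out RAD54B and FANCB.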

Additional observations from a re-analysis of the deposited data

How the results depend on the processing

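With RUVBL1 siRNA over control siRNA, the counts of 15 genes lower and 2 higher were the same with limma-voom, DESeq2 size factors in edgeR, a stricter low-count filter (50 counts in 3 libraries), without mitochondrially encoded genes, and with the replicate number as a block, which changed no call of the 36 genes. Replicates 2 and 3 only gave 15 and 2 as well but not the same genes: MRE11, FANCB and SLX4 lost their calls and RAD51D, FAN1 and RAD51C gained one. DESeq2 gave 14 lower and 1 higher, and no low-count filter 15 and 1. Under scaling by totals only they were 9 and 5, and the median log2 fold change of the 36 was 0.0208, against -0.0785 with TMM factors. The median of all tested genes moved by 0.0992, and the cause was not tested. Leaving out 1 library at a time gave 13 to 14 lower, 1 to 2 higher and a median of -0.11 to -0.0696. Counts over all tested genes moved too, from 3695 lower and 3060 higher in the main fit. They were 3370 and 2736 with DESeq2, 3984 and 2711 without a low-count filter, and 4094 and 3743 with the replicate block. Under scaling by totals only they were 2297 and 4981, and with 1 library left out 3261 to 3631 and 2450 to 2726. Of the 17 called genes, 7 lost the call in at least 1 alternative and 0 changed direction, while 7 of the 19 others were called in at least 1. RUVBL1 kept its call throughout. Direction changed for 14 genes that were not called. Under scaling by totals only, the log2 fold changes were PALB2 0.095, RBBP8 0.0967, XRCC3 0.0332, RAD52 0.054, BLM 0.0768, TOP3A 0.0292, RMI1 0.0606, RMI2 0.0679, FANCE 0.0875, FANCM 0.042, FAN1 0.053, BRIP1 0.0123. With DESeq2 they were PALB2 0.00604, RBBP8 0.00090, with limma-voom PALB2 0.00733, BLM 0.000357, with DESeq2 size factors PALB2 0.0014, RBBP8 0.0024, without a filter RAD51B -0.00239, with the stricter filter PALB2 0.0088, RBBP8 0.00942, FANCE 0.000499, with the block PALB2 8.10e-05, and in replicates 2 and 3 only PALB2 0.0704, BLM 0.0491, RMI1 0.00551, EME1 -0.0199. Leaving out 1 library at a time gave ranges that cross 0: BLM -0.0896 to 0.0689, EME1 -0.00588 to 0.10, FANCE -0.0526 to 0.026, PALB2 -0.0902 to 0.0798, RAD51B -0.0255 to 0.0344, RAD52 -0.12 to 0.0087, RBBP8 -0.0565 to 0.0522. Depth limits the rarer genes most: FANCB had as few as 42 estimated counts in a library.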

Other observations

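On chromosome 17 lie 6 of the 36 genes (BRCA1, BRIP1, RAD51C, RAD51D, EME1 and TOP3A), of which 1, BRCA1, was called, where 42.2% of all tested genes were. Taken by replicate number, the median log2 ratio of RUVBL1 siRNA over control siRNA across the 36 genes was -0.14, -0.08 and -0.12 in replicates 1, 2 and 3. The siRNA library was below the control library of the same number for 27, 23 and 29 of the genes, and for 19 genes under all 3 numbers. Pairing by number was not established. The 36 genes averaged between 84.5 and 4424 normalized counts over the 6 libraries. Among the 11041 tested genes in that range, 27.8% were lower and 22.8% higher, a background closer in abundance than that of all tested genes, beside 41.7% lower and 5.56% higher among the 36.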
